A study of Homo sapiens with 12 samples.

Results

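The genes examined here are ATF4, DDIT3, which encodes the factor CHOP, TRIB3, ASNS, CHAC1, ATF3, PPP1R15A, SESN2, NUPR1 and DDIT4. They are 10 of the 26334 genes in the count tables and belong to the stress response that runs through ATF4, CHOP and NUPR1. They were chosen by name because NUPR1 and DDIT3 were known, from these same libraries, to respond to Cisplatin less after RNF113A depletion, and because it was asked which of their companions share that pattern. The Cisplatin effects of these genes, and the effect of depletion under Cisplatin, therefore stand below as descriptions without p-values.

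In this response, stress kinases phosphorylate the translation factor eIF2α, which slows protein synthesis overall while the mRNA of ATF4 is translated more. ATF4 is a transcription factor that turns on genes for amino acid supply, tRNA charging and redox balance, often through the composite element it shares with C/EBP proteins. Among its targets are CHOP and TRIB3, which are linked to cell death when stress lasts, and PPP1R15A, which directs the phosphatase that restores eIF2α. NUPR1 is a small stress-induced nuclear protein that is also placed downstream of ATF4, whereas ATF3, SESN2, PPP1R15A and DDIT4 are known to respond to DNA damage as well.

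A549, a line from a human lung tumour, was studied in 12 RNA sequencing libraries, 3 biological replicates for each of 4 conditions. All cells, control cells included, had been infected with lentivirus and selected with puromycin at 1 µg/ml for 4 days. They carried a control shRNA (shControl, below control cells) or an shRNA against the splicing factor RNF113A (shRNF113A, below RNF113A-depleted cells). Each kind was left untreated or given Cisplatin, a drug that crosslinks DNA, at 25 µg/ml for 20 h. This dose is that of the sample labels, whereas other Cisplatin treatments in the study are stated in µM, so the unit of the dose is uncertain. Because these are bulk libraries of whole cultures, fewer cells of a kind and less RNA per cell cannot be told apart.

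The libraries held 33859097 to 56071514 read pairs, of which 26220526 to 45721152 fell on a gene and on its strand. Replicate 2 of the control cells stood apart from the other replicates, both untreated and treated. The counts of its untreated library differed from the other untreated control libraries by a chi-square of 96 and 88 per gene, against 11.9 between those others, and with Cisplatin the values were 63.5 and 63.7 against 8.17. For the 10 genes, log2 values of expression that moved by over 1.5 times, changed direction or crossed the limit of a call when both of these libraries were left out are given both ways. RNF113A mRNA itself fell by little upon depletion, by a log2 value of −0.31 in untreated cells (SE 0.09; adjusted p = 0.0247, edgeR's quasi-likelihood test), and had a log2 fold change of −0.14 (SE 0.09) under Cisplatin (adjusted p = 0.233, same test). The epithelial keratins KRT8 and KRT18 were abundant in every condition, with means of 2580 to 7020 and 1780 to 6260 CPM (reads of a gene scaled to the total of its library). Of the defining markers of other cell types, PTPRC, CD3E, HBB, PECAM1 and CDH5 stayed at or near 0, while COL1A1 had condition means of 4.86 to 15.9 CPM. Among the epithelial markers EPCAM was not even across conditions, with means of 5.16 to 92.2 CPM, and its part in the results was not tested.

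ATF4 and C/EBP proteins bind a composite element whose core was searched as TGATGNAA on both strands of the 250 bases before the start of each gene. RefSeq windows on GRCh38.p14 were at hand for 9 of the 10 genes, all but NUPR1, and 3 of the 9 held the letters, namely ASNS, CHAC1 and ATF3. Among all 27305 genes with a window, 1061 (3.89%) held them. The windows of ASNS and CHAC1 are shown because they carry the element in genes of amino acid and glutathione metabolism, and that of DDIT3 because it follows the pattern of NUPR1 without the letters in this window. Each reads 5′ to 3′ on the strand of the gene, with the element in capitals. It starts 68 bases before the start of ASNS (chr7:97872409-97872658, minus strand) and 209 bases before the start of CHAC1 (chr15:40953221-40953470, plus strand), where it lies on the reverse strand. The window of DDIT3 spans chr12:57520515-57520764 on the minus strand.
ASNS: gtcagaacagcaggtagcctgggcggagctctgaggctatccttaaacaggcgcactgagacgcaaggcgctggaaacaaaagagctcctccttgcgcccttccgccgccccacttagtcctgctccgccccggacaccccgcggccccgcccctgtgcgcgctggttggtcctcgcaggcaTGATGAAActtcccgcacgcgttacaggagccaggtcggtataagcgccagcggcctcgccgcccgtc
CHAC1: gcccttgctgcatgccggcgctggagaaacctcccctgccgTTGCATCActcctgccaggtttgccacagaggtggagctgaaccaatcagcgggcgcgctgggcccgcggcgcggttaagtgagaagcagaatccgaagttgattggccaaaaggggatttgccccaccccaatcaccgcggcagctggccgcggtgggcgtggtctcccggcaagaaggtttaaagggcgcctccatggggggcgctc
DDIT3: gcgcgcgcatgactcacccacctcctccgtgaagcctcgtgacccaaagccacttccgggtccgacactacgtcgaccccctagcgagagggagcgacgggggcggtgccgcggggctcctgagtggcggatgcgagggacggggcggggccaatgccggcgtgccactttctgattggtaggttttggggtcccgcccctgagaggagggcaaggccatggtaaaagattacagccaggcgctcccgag
A match in such a window is a description of its letters and not evidence of binding, and its absence says nothing about ATF4.

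The first question was what Cisplatin did to these genes in control cells and whether RNF113A-depleted cells did the same. In control cells DDIT3, ATF3, PPP1R15A, SESN2 and NUPR1 were between 5.71-fold and 16.1-fold higher with Cisplatin, CHAC1 was 2.13-fold and TRIB3 1.5-fold higher, and ATF4, ASNS and DDIT4 were not higher. In RNF113A-depleted cells ATF3 and SESN2 showed nearly the same Cisplatin effect, PPP1R15A a smaller one, and DDIT3, NUPR1, CHAC1 and TRIB3 a much smaller or opposite one. Levels below are CPM after TMM scaling of the libraries, and are listed in the order of replicates 1, 2 and 3. Fold changes and standard errors come from edgeR. On hg19 the central genes of the pattern lie at chr16:28548606-28550495 (NUPR1, minus strand), chr12:57910371-57914300 (DDIT3, minus strand), chr20:361261-378203 (TRIB3, plus strand) and chr15:41245160-41248710 (CHAC1, plus strand).

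ATF4, the central transcription factor, had 314, 342 and 346 CPM in untreated control cells and 261, 335 and 260 CPM with Cisplatin. In depleted cells it had 395, 384 and 414 CPM untreated and 316, 313 and 305 CPM with Cisplatin. ATF4 mRNA was thus slightly lower with Cisplatin in both backgrounds, by a log2 change of −0.23 (SE 0.09) and −0.35 (SE 0.09), and the control groups overlapped. The difference of the effects, −0.12 (SE 0.13), was −0.01 without replicate 2 of both control groups, where the control effect was −0.34. Since ATF4 is regulated largely at translation, these mRNA levels do not measure its protein.

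NUPR1 had 11.8, 13.8 and 13.4 CPM in untreated control cells and 75.6, 75.5 and 71.5 CPM with Cisplatin. In RNF113A-depleted cells it had 4.87, 4.30 and 5.26 CPM untreated and 8.04, 8.38 and 7.26 CPM with Cisplatin. The 4 conditions did not overlap, and the treated depleted cells stayed below the untreated control cells. The log2 change by Cisplatin was 2.51 (SE 0.10) in control cells and 0.72 (SE 0.10) in depleted cells, a difference of −1.80 (SE 0.14) that was −1.82 without replicate 2 of both control groups.

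DDIT3, or CHOP, a C/EBP family factor tied to cell death under stress, had 11.8, 8.94 and 11.4 CPM in untreated control cells and 118.5, 204.5 and 134 CPM with Cisplatin. Depleted cells had 8.36, 7.80 and 8.33 CPM untreated and 40.1, 35.5 and 23.4 CPM with Cisplatin. DDIT3 was therefore higher with Cisplatin in both backgrounds, 14.2-fold in control cells and 4.04-fold in depleted cells, and its treated groups did not overlap. Its treated control library of replicate 2 was far above the other treated control libraries. The difference between the Cisplatin effects was −1.81 (SE 0.31) on the log2 scale and −1.43 without replicate 2 of both control groups.

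ATF3, a factor of the same bZIP class that DNA damage also induces, had 11.2, 5.20 and 8.19 CPM in untreated control cells and 100, 191 and 104 CPM with Cisplatin. In depleted cells it had 7.62, 8.19 and 7.26 CPM untreated and 94.4, 91.0 and 114 CPM with Cisplatin. The treated groups of both backgrounds overlapped, and the folds were 16.1 in control cells and 13.0 in depleted cells. The difference of −0.32 (SE 0.38) depended on replicate 2 of the control cells, since it was 0.29 without both of those libraries and the log2 change in control cells was then 3.40 in place of 4.01.

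**Figure D1:**
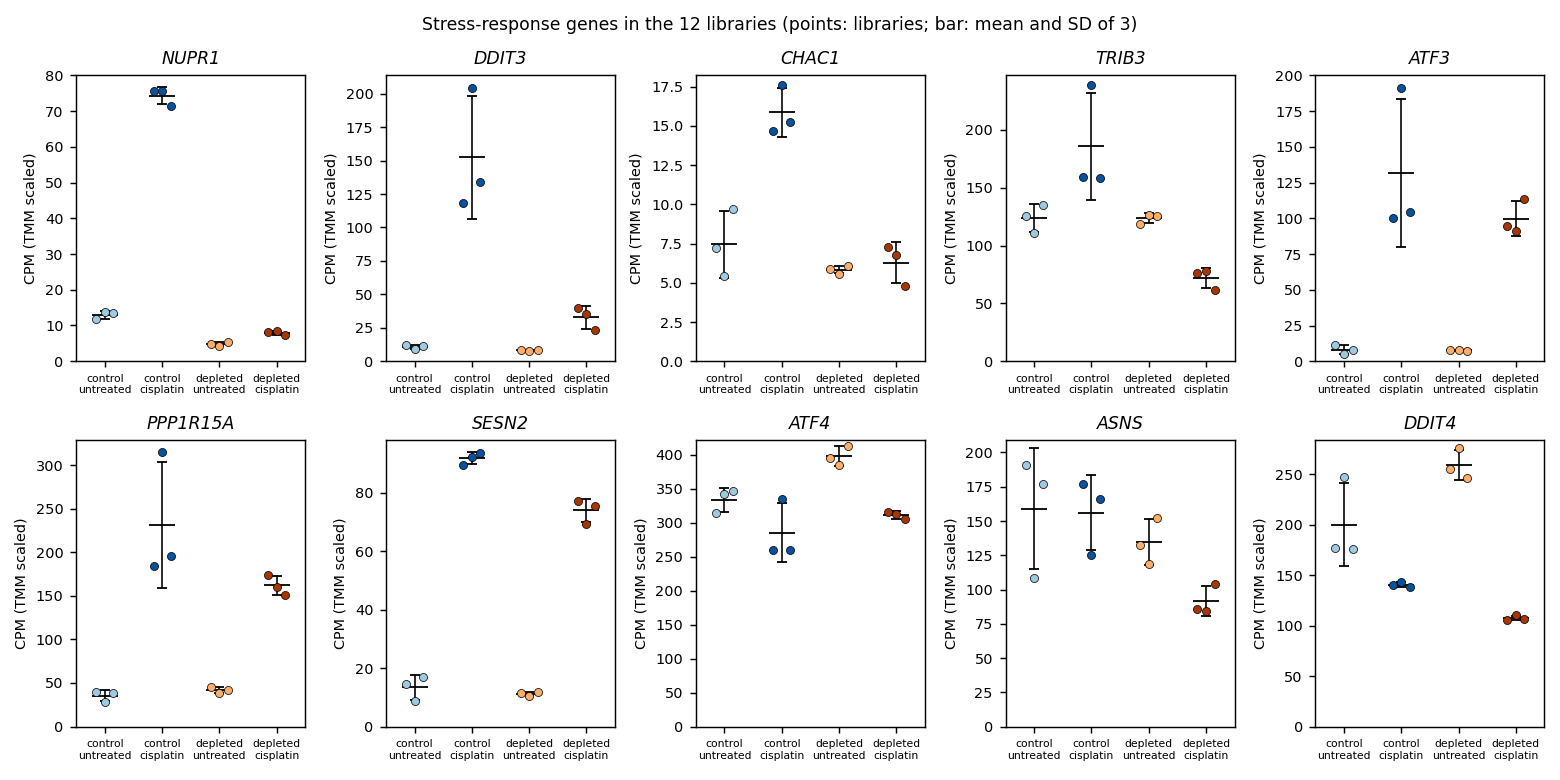
Expression of the 10 genes in each library, in CPM after TMM scaling, with points for libraries, bars for mean and SD of 3, and each gene on its own linear axis from 0. NUPR1 and DDIT3 sit far lower in treated depleted cells than in treated control cells (means of 7.89 against 74.2 CPM and 33.0 against 152 CPM), while ATF3 and SESN2 sit close together (99.7 against 132 CPM and 74.0 against 91.8 CPM).

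TRIB3, a pseudokinase that binds ATF4 and dampens its activity, had 126, 111 and 135 CPM in untreated control cells and 159.5, 239 and 159 CPM with Cisplatin. The depleted cells gave 119, 126 and 126 CPM untreated and 76.1, 77.7 and 61.6 CPM with Cisplatin. TRIB3 alone among the 10 genes had libraries that stood apart in opposite directions, higher with Cisplatin in control cells and lower in depleted cells. The log2 changes were 0.59 (SE 0.15) and −0.78 (SE 0.15), a difference of −1.37 (SE 0.21), and without replicate 2 of both control groups the control effect was 0.29 and the difference −1.07.

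CHAC1, which degrades glutathione, had 7.24, 5.43 and 9.68 CPM in untreated control cells and 14.7, 17.6 and 15.3 CPM with Cisplatin. In depleted cells it had 5.88, 5.59 and 6.06 CPM untreated and 7.27, 6.80 and 4.79 CPM with Cisplatin. The control groups were apart and the depleted groups overlapped. The log2 change was 1.09 (SE 0.20) in control cells and 0.11 (SE 0.20) in depleted cells, a difference of −0.98 (SE 0.28). Without replicate 2 of both control groups the control effect of CHAC1 was 0.82, below 2-fold, and the difference −0.71.

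ASNS, which makes asparagine, had 191, 109 and 177 CPM in untreated control cells and 177, 125.5 and 166 CPM with Cisplatin, with overlap between the groups. The depleted cells had 132, 119 and 152 CPM untreated and 86.0, 84.2 and 104 CPM with Cisplatin, without overlap. The Cisplatin log2 change was −0.03 (SE 0.19) in control cells, −0.10 without both replicate 2 libraries, and −0.56 (SE 0.19) in depleted cells. A classical ATF4 target was therefore not higher with Cisplatin in either background.

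PPP1R15A, or GADD34, the partner that directs protein phosphatase 1 to eIF2α, had 39.4, 28.4 and 38.8 CPM in untreated control cells and 184, 315 and 195 CPM with Cisplatin. In depleted cells it had 44.9, 38.8 and 41.6 CPM untreated and 174, 161 and 151 CPM with Cisplatin. The treated depleted libraries all lay below the treated control libraries, and the folds were 6.51 and 3.87. The difference of the Cisplatin effects was −0.75 (SE 0.26) on the log2 scale. The treated control library of replicate 2 was far above its group and the untreated one below it, and without both the difference was −0.32 and the log2 change in control cells 2.28 in place of 2.70.

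SESN2, a regulator of mTORC1 and of redox balance, had 14.7, 8.74 and 16.8 CPM in untreated control cells and 89.5, 92.2 and 93.7 CPM with Cisplatin. Depleted cells gave 11.4, 10.6 and 11.8 CPM untreated and 77.1, 69.4 and 75.5 CPM with Cisplatin. SESN2 was 6.85-fold and 6.57-fold higher with Cisplatin, and the difference of −0.06 (SE 0.24) on the log2 scale was 0.18 without replicate 2 of both control groups. With all libraries SESN2 had the smallest such difference of the 10 genes.

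DDIT4, or REDD1, another inhibitor of mTORC1, had 177, 247 and 176 CPM in untreated control cells and 141, 143 and 138 CPM with Cisplatin. In the depleted background it had 255, 276 and 247 CPM untreated and 106, 110 and 106.5 CPM with Cisplatin. DDIT4 was lower with Cisplatin in both backgrounds, by a log2 change of −0.51 (SE 0.11) in control cells and −1.27 (SE 0.11) in depleted cells. Its untreated library of control replicate 2 lay above the other untreated control libraries, and without both of the replicate 2 libraries the control effect went from −0.51 to −0.34 and the difference of the effects from −0.76 to −0.93.

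A gene was called where its adjusted p was under 0.05 and its fold change at least 2. With Cisplatin in control cells 6 of the 10 genes were called higher, where 9.16% of all 15352 genes tested were, and 0 lower, where 10.6% were. In depleted cells 4 were called higher (11.6% of all genes) and 1 lower (11.5%), the latter being DDIT4. The interaction, which asks whether the Cisplatin effects differ, was called lower for NUPR1, DDIT3 and TRIB3 (0.508% of all genes) and higher for 0 (0.769%). Because these contrasts chose the genes, nothing is read from the counts. Just outside the limits of the interaction lay CHAC1 at −0.98, which was called with DESeq2, and DDIT4 at −0.76. All 10 interaction values were negative with all libraries, with a median of −0.75 against 0.001 over all genes. Without replicate 2 of both control groups those of ATF3 and SESN2 were positive, 8 were negative and the median was −0.58. The choice of the genes rested on this contrast, so these signs and medians are a description as well. By an adjusted p under 0.05 alone, without the limit on the fold, 8 of the 10 genes passed for Cisplatin in control cells (55% of all genes), 9 in depleted cells (60.2%) and 4 for the interaction (4.25%). The contrasts in control and depleted cells use different libraries, while the interaction uses all 12.

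**Figure D2:**
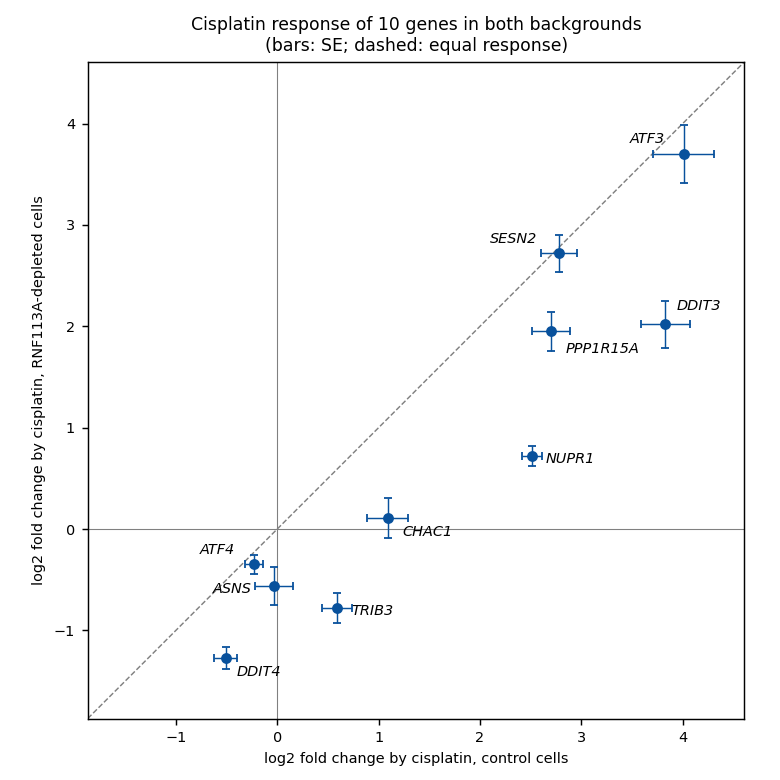
Log2 fold change with Cisplatin of each of the 10 genes in control cells (horizontal axis) against RNF113A-depleted cells (vertical axis), with bars of 1 SE and a dashed line of equal effect. SESN2 (2.78 and 2.72) and ATF3 (4.01 and 3.70) lie near the line, and NUPR1 (2.51 and 0.72), DDIT3 (3.83 and 2.02), TRIB3 (0.59 and −0.78) and CHAC1 (1.09 and 0.11) lie furthest below it.

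Whether depletion altered these genes before any Cisplatin was tested, since the pattern that chose them is one of Cisplatin effects. The untreated contrast shares its libraries with the Cisplatin contrasts, and the genes were chosen with earlier results of these data known. Its p-values are therefore not independent of the choice. NUPR1 fell in RNF113A-depleted cells, from 13.0 ± 1.05 CPM (SD, n = 3) to 4.81 ± 0.479 CPM (SD, n = 3), with a log2 fold change of −1.43 (SE 0.10), which is 2.70-fold lower (adjusted p = 2e-06, edgeR's quasi-likelihood test). It alone was called among the 10 genes, where 4.96% of all genes were called lower and 3.7% higher. Leaving out replicate 2 of both control groups gave −1.39. By the adjusted p alone 2 of the 10 genes passed, NUPR1 and DDIT4, where 27.4% of all genes did.

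DDIT4 rose below the 2-fold limit, from 200 ± 40.9 to 259 ± 14.9 CPM (SD, n = 3 each), with a log2 fold change of 0.37 (SE 0.11) and an adjusted p of 0.0278 from edgeR's quasi-likelihood test. The highest untreated control library of DDIT4 was that of replicate 2, which overlapped the depleted libraries, and the log2 fold change was 0.55 without both replicate 2 libraries. ATF4 had 0.25 (SE 0.09) with all libraries (adjusted p = 0.0687, edgeR) and DDIT3 −0.39 (SE 0.23; adjusted p = 0.221, edgeR). Both had libraries apart, ATF4 higher and DDIT3 lower in depleted cells. Without replicate 2 of both control groups ATF4 had 0.27 (adjusted p = 0.00413, edgeR) and DDIT3 −0.51 (adjusted p = 0.0243, edgeR), each still below 2-fold.

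The other 6 genes had log2 fold changes between −0.35 for CHAC1 (SE 0.20; adjusted p = 0.216, edgeR) and 0.23 for PPP1R15A (SE 0.19; adjusted p = 0.378, edgeR), and their groups overlapped. TRIB3 had 0.00 (SE 0.15; adjusted p = 0.992, edgeR). For all 6 the untreated control library of replicate 2 was the lowest of its group, and their values moved without both replicate 2 libraries. SESN2 then had −0.49 in place of −0.25 (adjusted p = 0.000387, edgeR), ASNS −0.45 in place of −0.24 (adjusted p = 0.00171, edgeR) and CHAC1 −0.54 (adjusted p = 0.0123, edgeR), each below 2-fold and with its remaining libraries apart. ATF3 had −0.33 in place of −0.09 (adjusted p = 0.0568, edgeR), PPP1R15A 0.09 (adjusted p = 0.362, edgeR) and TRIB3 −0.08 (adjusted p = 0.495, edgeR). In that fit 7 of the 10 genes passed the adjusted p, where 41.8% of all genes did, and NUPR1 was still the only one past 2-fold. The median over the 10 genes was −0.16 with all libraries and −0.39 without these.

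Among Cisplatin-treated cells NUPR1 was 9.39-fold lower in depleted cells, DDIT3 4.62-fold, TRIB3 2.58-fold and CHAC1 2.52-fold. ASNS followed at 1.71-fold lower, PPP1R15A at 1.43-fold, ATF3 at 1.32-fold, DDIT4 at 1.31-fold and SESN2 at 1.24-fold, and ATF4 was 1.09-fold higher. The libraries of 8 genes were apart, all lower in depleted cells, and those of ATF4 and ATF3 overlapped. Without replicate 2 of both control groups the log2 value of ATF3 went from −0.40 to −0.04, that of PPP1R15A from −0.51 to −0.23 and that of ATF4 from 0.13 to 0.26, while DDIT3 went from −2.21 to −1.94 and TRIB3 from −1.37 to −1.15. Of the 10 genes 4 were called lower, where 5.42% of all genes were, and 0 higher, where 6.9% were, and 7 passed the adjusted p alone, where 42.9% of all genes did. Again the choice of the genes used these values. The contrast shares its treated libraries with the Cisplatin contrasts.

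**Figure D3:**
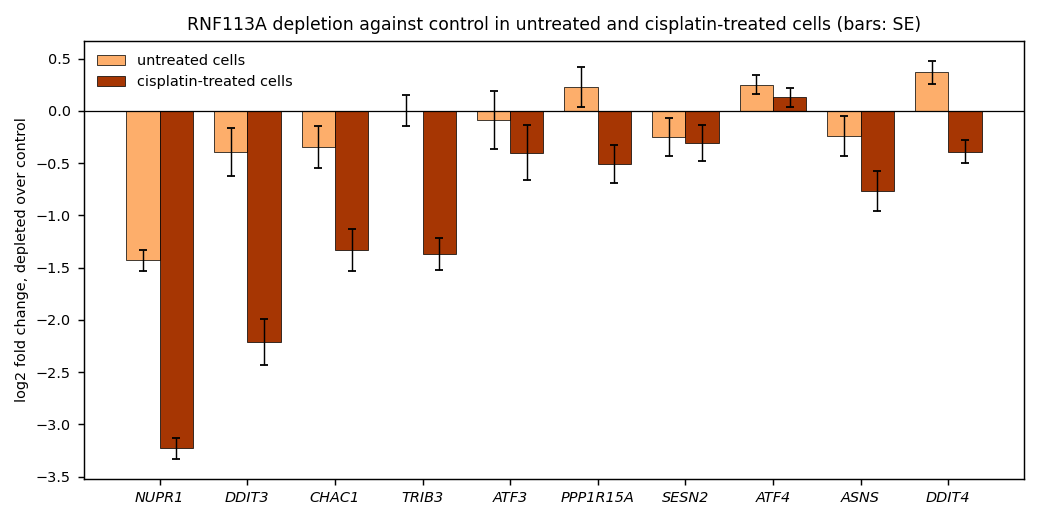
Log2 fold change of RNF113A-depleted over control cells for each gene in untreated (light) and Cisplatin-treated cells (dark), with bars of 1 SE. NUPR1 is low in both (−1.43 and −3.23), whereas DDIT3 (−0.39 and −2.21), TRIB3 (0.00 and −1.37) and CHAC1 (−0.35 and −1.33) are low mainly under Cisplatin.

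Divided by the exon length of each gene, the levels showed which of these mRNAs were abundant. In untreated control cells the order ran from ATF4 at 133 ± 7.06 CPM per kb (SD, n = 3), DDIT4 at 114 ± 23.4, ASNS at 59.9 ± 16.6 and TRIB3 at 44.9 ± 4.35 to NUPR1 at 13.4, PPP1R15A at 11.5, DDIT3 at 9.11, SESN2 at 3.88, CHAC1 at 3.63 and ATF3 at 3.28 CPM per kb. ATF4 and DDIT4, ASNS and TRIB3, NUPR1 and PPP1R15A, and the last 3 genes differed by less than the spread of their libraries. With Cisplatin DDIT3 reached 129 ± 38.9 and NUPR1 76.7 ± 2.44 CPM per kb in control cells (SD, n = 3 each), beside 114 ± 17.3 for ATF4. In treated depleted cells DDIT3 reached 28.0 ± 7.33 and NUPR1 8.15 ± 0.593 CPM per kb (SD, n = 3 each). NUPR1 was then the lowest of the genes but CHAC1, which had 3.06 CPM per kb.

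Across the 12 libraries the genes fell into sets that moved alike. ATF3, PPP1R15A and SESN2 correlated with each other at r of 0.98 to 0.99, NUPR1 with CHAC1 at 0.92, and DDIT3 with ATF3, PPP1R15A and SESN2 at 0.90 to 0.92 and with NUPR1 at 0.86. TRIB3 correlated with CHAC1 at 0.76 and NUPR1 at 0.66, and at −0.02 to 0.07 with ATF3, PPP1R15A and SESN2. ATF4 was negatively related to NUPR1 (−0.71) and DDIT3 (−0.73). Among 9779 genes ranked, those most like NUPR1 were TSG101 (0.976), PCM1 (0.973), APOBEC3B (0.971), HS1BP3 (0.968) and ME2 (0.968), and those most like DDIT3 were C18orf25 (0.992), TDG (0.991), NFKB1 (0.99), MOCOS (0.988) and TACO1 (0.986). These Pearson correlations of log CPM describe 12 libraries from 4 conditions, which share the drug, the shRNA and the control libraries that stand apart.

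The wider pathway was described by 65 further genes in 6 lists, of which 63 were tested and FGF21 and SLC7A3 were too low. Cisplatin raised 5 and lowered 2 of them in control cells, which is 7.94% and 3.17% of the 63 where 9.16% and 10.6% of all genes were called. In depleted cells it raised 5 and lowered 6 (7.94% and 9.52%, against 11.6% and 11.5%). Depletion raised 0 and lowered 6 in Cisplatin-treated cells (9.52% lower, against 6.9% higher and 5.42% lower of all genes), and raised 0 and lowered 1 in untreated cells (1.59% lower, against 3.7% and 4.96%). The interaction was positive for 1 called gene and negative for 3 (1.59% and 4.76%, against 0.769% and 0.508%). The medians were −0.03, −0.31, −0.39, −0.07 and −0.28 on the log2 scale, in that order, and all adjusted p-values that follow are from edgeR's quasi-likelihood test over all genes. These contrasts share libraries pairwise. The lists were chosen with earlier results of these data known, so the p-values describe these genes and are not independent support.

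Of the 10 genes of serine, glycine and proline synthesis, 4 were called lower upon depletion under Cisplatin, where 5.42% of all genes were, and 0 higher, while the other 6 did not pass the adjusted p. PHGDH, the first enzyme of serine synthesis, went from 73.3 ± 4.26 CPM to 21.2 ± 1.28 CPM (SD, n = 3 each), a log2 fold change of −1.79 (SE 0.10; adjusted p = 3.5e-07). Its next enzymes PSAT1 and PSPH fell by 1.04 and 1.26, and ALDH1L2, a mitochondrial folate enzyme, fell by 1.73 on the log2 scale. PHGDH, PSAT1 and PSPH were also lower in untreated depleted cells, at −0.91 (SE 0.09; adjusted p = 3.3e-05), −0.53 (SE 0.11; adjusted p = 0.00425) and −0.62 (SE 0.07; adjusted p = 4.9e-05), each below 2-fold. ALDH1L2 was lower there as well, at −0.46 (adjusted p = 0.0109, edgeR), while GPT2 of the same list was higher, at 0.55 (adjusted p = 0.000335, edgeR). By the adjusted p alone 4 of the 10 were lower in untreated depleted cells and 1 higher, where 27.4% of all genes passed. ALDH1L2 had Cisplatin effects of 0.59 (SE 0.11) in control cells and −0.68 (SE 0.12) in depleted cells, and its interaction was called at −1.26 (SE 0.16; adjusted p = 0.00639).

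Of the 8 amino acid transporters tested, SLC7A5, which imports large neutral amino acids, fell with Cisplatin in control cells (log2 −1.10, SE 0.19; adjusted p = 0.00031). In depleted cells SLC7A5 fell nearly as much, by −0.94 (adjusted p = 0.000825, edgeR), below 2-fold. Its interaction was 0.16 (adjusted p = 0.783, edgeR). SLC6A9, a glycine transporter, fell with Cisplatin in depleted cells (−1.68, SE 0.11; adjusted p = 9.9e-08) and had −0.42 in control cells. Its interaction of −1.27 (SE 0.15) was called (adjusted p = 0.0046). In untreated cells SLC6A9 was higher upon depletion, at 0.50 (adjusted p = 0.00379, edgeR). So was the transporter gene SLC38A2, at 0.93 (adjusted p = 4.2e-05, edgeR) and 1.02 without replicate 2 of both control groups. By the adjusted p alone 2 of the 8 were higher there and 0 lower, where 27.4% of all genes passed. SLC1A4, a carrier of alanine and serine, fell with Cisplatin in depleted cells (−1.07, SE 0.13) and upon depletion under Cisplatin (−1.08, SE 0.13; adjusted p = 7e-05), where without replicate 2 of both control groups it had −0.98, below 2-fold.

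The list of aminoacyl-tRNA synthetases also holds the tRNA exporter XPOT. Upon depletion under Cisplatin 12 of its 13 genes were lower at an adjusted p under 0.05, where 21.8% of all genes were, 0 were called at 2-fold by edgeR or by DESeq2, 12 had an unadjusted p under 0.05, and the median was −0.46. AARS, the alanine enzyme, fell with Cisplatin in depleted cells from 422 ± 7.08 to 181 ± 21.8 CPM (SD, n = 3 each), a log2 fold change of −1.22 (SE 0.10; adjusted p = 5.6e-07). Its interaction of −1.0 (SE 0.14; adjusted p = 0.00674) lay at the 2-fold limit and was not called without replicate 2 of both control groups (−0.90). SARS, the serine enzyme, rose with Cisplatin in control cells (1.39, SE 0.09; adjusted p = 7.3e-08) and by 0.75 (SE 0.08) in depleted cells.

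Among the 16 effectors and secreted factors tested, 4 genes known to answer to DNA damage as well rose with Cisplatin in both backgrounds. GDF15, a secreted stress cytokine, rose by 2.64 (SE 0.26) in control cells, 2.09 without both replicate 2 libraries, and by 1.84 (SE 0.25) in depleted cells. The death receptor gene TNFRSF10B rose by 1.71 (SE 0.08) and 1.19 (SE 0.08), BBC3 (PUMA) by 3.28 (SE 0.16) and 2.89 (SE 0.16), and PMAIP1 (NOXA) by 2.71 (SE 0.15) and 2.45 (SE 0.15). BCL2L11, which encodes the proapoptotic protein BIM, had a positive interaction where NUPR1 had a negative one. It fell upon depletion in untreated cells from 28.8 ± 2.75 to 12.2 ± 0.692 CPM (SD, n = 3 each; log2 −1.24, SE 0.12; adjusted p = 2e-05), rose with Cisplatin in depleted cells (1.20, SE 0.12) where control cells had −0.05 (SE 0.12), and its interaction was 1.25 (SE 0.17; adjusted p = 0.00639). HMOX1, which degrades heme, fell with Cisplatin in both backgrounds, by 1.03 and 1.05 on the log2 scale.

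The kinases, phosphatase subunits and substrate that set eIF2α phosphorylation were not called. Of 9 genes 0 were called in any of the 5 contrasts, by edgeR or by DESeq2, although between 2 and 8 had an unadjusted p under 0.05. By the adjusted p alone, Cisplatin gave 4 higher and 3 lower in control cells, where 55% of all genes passed. In depleted cells it gave 4 higher and 4 lower (60.2%). EIF2AK3, the kinase PERK of the endoplasmic reticulum, had Cisplatin effects of −0.56 (SE 0.11) in control cells and −0.35 (SE 0.11) in depleted cells. The kinase gene EIF2AK4 went the other way, at 0.80 and 0.31 (adjusted p = 5.1e-07 and 0.000984, edgeR). Upon depletion under Cisplatin EIF2AK4 had −0.53 (adjusted p = 6.5e-05, edgeR), below 2-fold. Among the 7 partner transcription factors CEBPD fell with Cisplatin in depleted cells (−1.49, SE 0.25; adjusted p = 0.00022). In control cells it also fell, by −1.0 at the limit of a call (adjusted p = 0.00343, edgeR). JDP2, which binds related DNA elements, fell upon depletion under Cisplatin (−1.11, SE 0.22; adjusted p = 0.00175). In untreated cells JDP2 was also lower upon depletion, at −0.94 (adjusted p = 0.00664, edgeR), and at −1.20 without replicate 2 of both control groups. Their interactions did not pass, at −0.49 for CEBPD (adjusted p = 0.444, edgeR) and −0.17 for JDP2 (adjusted p = 0.8, edgeR). CEBPG, a partner of ATF4, was lower in treated depleted cells by a log2 change of −0.64 (SE 0.09; adjusted p = 0.00026), below 2-fold. ATF5 went the other way upon depletion, at 0.86 under Cisplatin (adjusted p = 0.00409, edgeR) and 0.64 in untreated cells (adjusted p = 0.0284, edgeR). Without replicate 2 of both control groups these ATF5 values were 0.79 and 0.39. By the adjusted p alone 4 of the 7 partner factors were lower upon depletion under Cisplatin and 1 higher, where 42.9% of all genes passed.

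RNF113A belongs to the spliceosome, so the reads within the introns of these genes were also examined. The authors counted reads once over exons alone and once over complete genes, and the remainder is taken as intronic. Whether these counts used strand is not given in the sources used here. In absolute differences summed over genes and libraries, the exon counts lay 20491902 reads from the gene-strand counts and 25572402 from the unstranded ones. Over all genes the intronic reads rose against the exonic ones upon depletion. Upon depletion in untreated cells 30.2% of 10684 genes had a higher ratio at an adjusted p under 0.05 and 0.159% a lower one, and the median log2 change of all genes was 0.47.

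In untreated cells, where the ratio could be tested, it rose for DDIT3. Intronic reads made up 13.5%, 7.67% and 12.3% of its reads in control libraries and 21.5%, 28.8% and 21.2% in depleted libraries. The log2 change of the ratio was 1.30 (SE 0.44; adjusted p = 0.0326, edgeR's quasi-likelihood test), and DDIT3 alone was called among the 10 genes. The test is against no change, and the distance of DDIT3 from the median of all genes was not tested. The value rested on 28 to 105 intronic reads per library, and the DDIT3 call was lost without untreated control replicate 2 (1.08, adjusted p = 0.121, edgeR) or 3 (1.39, adjusted p = 0.059, edgeR). It was also lost without untreated depleted replicate 1 (1.40, adjusted p = 0.0618, edgeR) or 2 (1.10, adjusted p = 0.137, edgeR). Leaving out both replicate 2 libraries of the control cells kept it for DDIT3 (1.08, adjusted p = 0.0058, edgeR) and added DDIT4 (0.58, adjusted p = 0.0302, edgeR). All 10 genes had positive values with all libraries, with a median of 0.50, while ATF4 and SESN2 had −0.03 and −0.09 without both replicate 2 libraries.

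In Cisplatin-treated cells the intronic share of 9 of the 10 genes was called higher upon depletion and that of 0 lower, where 86.1% of all genes were higher and 0.178% lower. DDIT3 had 5.36%, 2.29% and 7.64% in treated control cells and 21.4%, 19.5% and 38.4% in treated depleted cells, a log2 change of the ratio of 2.81 (SE 0.37) that was 2.31 without both replicate 2 libraries. Its intronic reads, not scaled to depth, were 250, 198 and 510 in treated control and 319, 261 and 346 in treated depleted libraries. Its exonic reads were 4412, 8447 and 6164 against 1172, 1078 and 555. The higher ratio of DDIT3 thus came mainly with fewer exonic reads. The treated depleted libraries were also shallower, with 26220526 to 30806147 read pairs on the strand of a gene against 37808692 to 45721152 in treated control libraries. These unscaled counts therefore understate the intronic reads of depleted cells beside those of control cells. The ratio of DDIT4 was not called without both replicate 2 libraries. For CHAC1 the means were 2.05% and 7.08%, for TRIB3 1.66% and 4.71%, for ASNS 3.91% and 8.46%, and for ATF3 6.67% and 12.7%. The median of the 10 genes was 1.16 against 0.98 over all genes. NUPR1 was the exception at −0.76 (SE 0.51), but its treated depleted libraries held only 1 to 4 intronic reads.

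The Cisplatin effect on the ratio differed in its calls between the backgrounds, a difference that was not tested. In control cells the ratio was called higher for NUPR1 alone among the 10 genes (17.2% of all genes), a gene that had at least 10 intronic reads only in treated control cells, and lower for DDIT3 and PPP1R15A (1.22%), the latter not without both replicate 2 libraries. In depleted cells it was called higher for ATF4, TRIB3 and ASNS (67.5% of all genes) and lower for 0 (0.711%). The 10 genes were chosen on these contrasts, so their counts are given as a description.

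**Figure D4:**
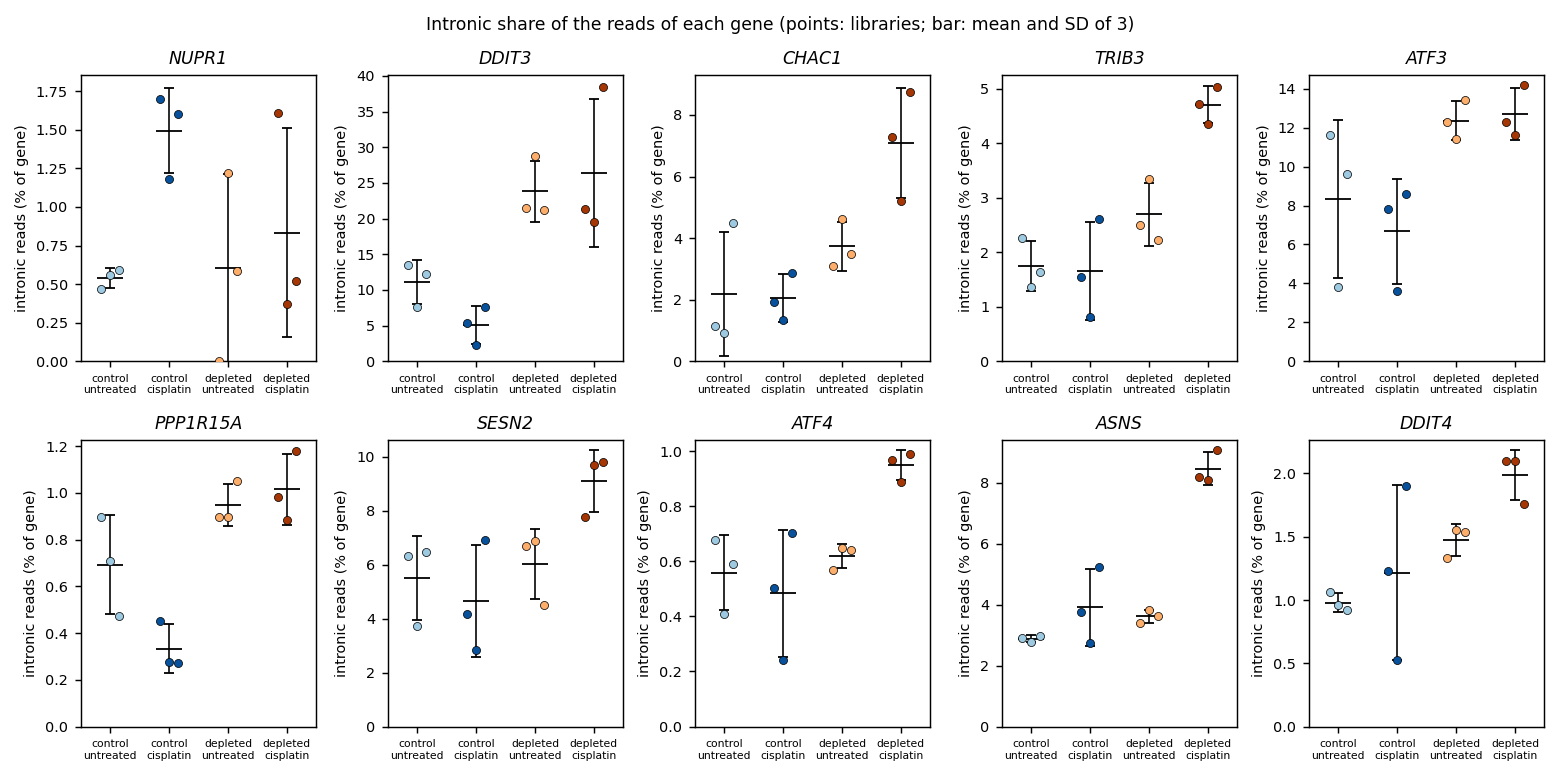
Intronic reads as a percentage of the reads of each gene, with points for libraries and a bar for mean and SD of 3, each gene on its own vertical axis. DDIT3 goes from means of 11.2% and 5.10% in control cells to 23.8% and 26.4% in depleted cells, and NUPR1 has condition means of 0.539% to 1.49%.

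Retained introns of these genes lay mostly in the leader, the exons ahead of the coding region. The splicing tables, in which each intron or exon has reads of its inclusion and skipping form, listed 6 to 7 retained intron events of ATF4, DDIT3 and ATF3 per comparison. The ATF4 intron at chr22:39916757-39917358 (hg19, plus strand, 602 bases) precedes the coding start in the 4 coding transcripts that have it. The DDIT3 intron on the minus strand of chromosome 12 has 1 donor site and several acceptor sites, all ahead of the coding start, and the events with 267 bases (chr12:57911222-57911488) and 281 bases (chr12:57911208-57911488) had the most reads. Their splice sites are shown because they are the junctions whose use was measured, with the ends of the intron, GT and AG, in capitals, and with 3 exonic and 6 intronic bases at the donor and 20 intronic and 3 exonic bases at the acceptor.
ATF4 donor: ggcGTgagt
ATF4 acceptor: ggcttctgattctcattcAGgct
DDIT3 donor, shared by both events: cagGTaaac
DDIT3 acceptor, 267 bases: cactccccattatcctgcAGatg
DDIT3 acceptor, 281 bases: ctgcagatgtgcttttccAGact
All of these introns have the standard GT and AG ends.

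The ATF4 leader intron was included at 2.47%, 1.99% and 2.34% in untreated control libraries a, b and c, and at 3.18%, 3.98% and 2.44% in untreated depleted libraries (the tables do not name the replicates). The difference of 0.933 percentage points did not pass the test (adjusted p = 0.0813, edgeR's quasi-likelihood test on inclusion against skipping reads). With Cisplatin it was 2.08%, 1.83% and 3.40% in control and 4.33%, 4.81% and 5.19% in depleted cells. The treated depleted libraries were the highest of the 12.

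The DDIT3 intron of 267 bases was included at 21.1%, 20.6% and 28.4% in untreated control cells and 24.8%, 28.7% and 32.9% in untreated depleted cells, a difference of 5.40 points (adjusted p = 0.529, edgeR). With Cisplatin it was included at 7.86%, 5.13% and 9.84% in control cells and 20.9%, 18.3% and 31.1% in depleted cells. Inclusion was thus low where DDIT3 was highest, and the treated groups did not overlap. The event of 281 bases had means of 63.6% ± 10.0 and 35.6% ± 2.53 without and with Cisplatin in control cells and 62.7% ± 3.28 and 56.2% ± 1.84 in depleted cells (SD, n = 3 each). These events share their inclusion reads, so they are not separate measurements.

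MARS, a methionine tRNA synthetase gene, overlaps the end of DDIT3 on the opposite strand, and whether the splicing tables used strand is not given in the sources used here. The reads counted as inclusion of the intron of 267 bases went from 63, 61 and 58 to 252, 310 and 433 with Cisplatin in control cells, while the mean of MARS went from 303 to 266 CPM. The part of MARS reads in the inclusion level, or in the intronic reads of DDIT3 above, was not tested.

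Calls of events required an adjusted p under 0.05 and mean inclusion levels at least 20 points apart. Among retained introns of these genes, 0 of 5 were called upon depletion in untreated cells, with 1 at an unadjusted p under 0.05, where 0.987% of all introns tested were called. Upon depletion under Cisplatin 1 of 7 was called, the DDIT3 event of 281 bases at 20.6 points, where 2.37% of all were. Without control library a or b or depleted library a or b of the treated cells, 0 were called, and without control library c 2 were. With Cisplatin 0 of 7 were called in control cells (0.0809% of all) and 0 of 7 in depleted cells (1.07%), with 2 and 1 at an unadjusted p under 0.05. These counts come from edgeR alone, and DESeq2 was not run on the splicing tables.

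**Figure D5:**
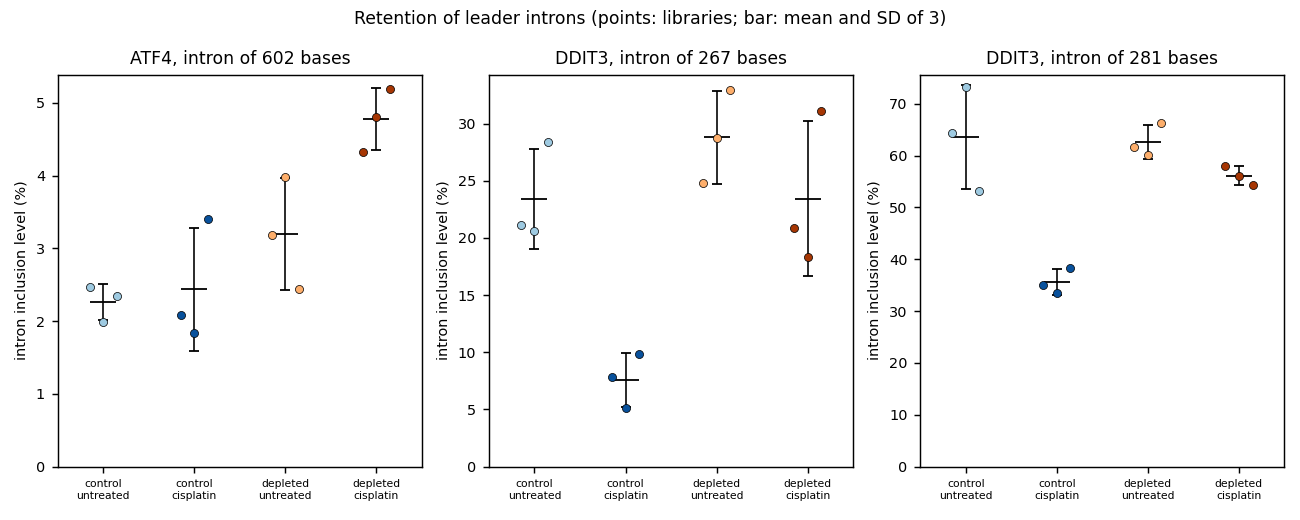
Inclusion level in percent of the leader introns of ATF4 and DDIT3, with points for the libraries of each condition and a bar for mean and SD of 3. The DDIT3 intron of 267 bases falls to a mean of 7.61% in treated control cells and stays at 23.4% in treated depleted cells.

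For skipped exons of these genes 0 events were called in any comparison. In untreated cells depletion gave 0 of 19 events, and 0 at an unadjusted p under 0.05 (0.0128% of all exons called). Under Cisplatin it gave 0 of 19 with 4 at an unadjusted p under 0.05 (0.0539%), and Cisplatin gave 0 of 15 in control cells with 2 (0.0559%) and 0 of 17 in depleted cells with 3 (0.25%). An ASNS exon in the first part of the gene (chr7:97501031-97501308, hg19) is given as an example, singled out after its values were seen. It was included at 5.00%, 3.08% and 4.60% in untreated control cells and 13.3%, 9.60% and 18.1% in treated depleted cells. In untreated depleted cells it had 4.33% ± 0.922 (SD, n = 3), against 4.23% ± 1.01 (SD, n = 3) in control cells, a difference of 0.104 points (adjusted p = 0.996, edgeR).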

How the data were processed

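The authors made TruSeq stranded mRNA libraries, read from 2 ends for 76 bases, and aligned them to hg19 with STAR 2.5.2b, which gave the deposited read counts per gene and strand without normalization. They counted exonic and gene-span reads with HTSeq in its intersection-strict mode, and inclusion and skipping reads of splicing events with rMATS. The submitters' processing notes also name bcl2fastq 2.17, cutadapt, Bowtie2, Cufflinks and Cuffdiff. The authors' own p-values, FDR and inclusion differences were not used. Libraries had 33859097 to 56071514 read pairs, and 14.0% to 22.6% of them had no gene and stayed out of the tests.

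Counts on the strand of the gene were fitted in R 4.3.3 with edgeR 4.0.16 (TMM scaling, filterByExpr, quasi-likelihood test) over 12 libraries in 4 groups, with contrasts for each comparison and Benjamini-Hochberg adjustment over 15352 genes. Calls of genes required an adjusted p under 0.05 and at least 2-fold. Intronic reads (gene span minus exons) were tested against exonic ones, and inclusion against skipping reads, with a term for each library, for genes with at least 10 exonic reads in every library and at least 10 intronic reads in every library of any 1 group, and events with a mean of at least 10 reads. DESeq2 1.42.0 was an alternative. Inclusion levels are reads divided by the effective length of each form. Tests were run on simulated data with changes of 2 on the log2 scale, of which 99% were recovered for Cisplatin in control cells (15125 genes), 93.4% for the interaction, 95.5% for intronic reads upon depletion under Cisplatin (9554 genes) and 62% for retained introns upon depletion in untreated cells (3646 events). Sequences came from RefSeq (GRCh38.p14) and from GRCh37 by coordinates. Python 3.11.15, pandas 2.3.3 and matplotlib 3.10.9 served for tables and figures.

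The 10 genes, the pathway lists and the rules were chosen with earlier results of these data known. Further pathway genes were named where called, up to 3 per list by the number of contrasts in which they were called, plus those with a called interaction. EIF2AK3, EIF2AK4, CEBPG, ATF5, SLC38A2, GPT2, ATF4's element and the ASNS exon were singled out besides. Over 9779 genes, deviations from the group mean were correlated between untreated and treated libraries of the same number. The r was 0.632, 0.731 and 0.48 for the control cells, and 0.406, −0.0647 and 0.299 for the depleted ones. Replicate 2 stood apart in both control groups and entered their means, and libraries of unlike numbers were not compared. Whether libraries of the same number are paired was therefore not tested, and the labels do not say.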

Additional observations from a re-analysis of the deposited data

Results flagged for a closer look

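The Cisplatin effect differed between RNF113A-depleted and control cells, by the interaction term of edgeR's quasi-likelihood test, for 4 of the 63 pathway genes tested (1.59% positive and 4.76% negative, against 0.769% and 0.508% of all genes). It was −1.26 for ALDH1L2, −1.27 for SLC6A9, −1.0 for AARS and 1.25 for BCL2L11 on the log2 scale, and that of AARS was not called without replicate 2 of both control groups (−0.90). For DDIT3, TRIB3 and NUPR1 the values were −1.81, −1.37 and −1.80, but their Cisplatin response chose these genes, so no test is given for them. The pathway lists too were chosen with earlier results of these data known, so their interaction calls are a description. Groups of 3 libraries are too small for a test of single libraries that stand apart.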

How the results depend on the processing

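Of 1010 refits of the 50 expression values of the 10 genes, 13 gained a call and 2 lost one, and 10 changed the sign of 5 values, all of them below the limits of a call. These refits include the setting that only drops the limit on the fold. With that limit kept, the only gains were those of the CHAC1 interaction, with DESeq2 and without control untreated replicate 3. Of these values only that of ATF3 upon depletion in untreated cells was tested, −0.33 to 0.20 with single libraries left out, and TRIB3, at 0.00 there, had −0.08 to 0.06. The lost call was CHAC1 with Cisplatin in control cells, without control untreated replicate 2 alone (0.91) or with both control replicate 2 libraries left out (0.82), an alternative chosen after seeing the data. For the intronic ratios 49 of 636 refits and for splicing events 7 of 720 changed a call, and 18 and 38 changed a sign. Among the tested ones, the log2 ratios upon depletion in untreated cells spanned −0.03 to 0.32 for ATF4, −0.09 to 0.27 for SESN2 and −0.71 to 0.77 for NUPR1 with single libraries left out, and −0.03 and −0.09 for ATF4 and SESN2 without both control replicate 2 libraries. The inclusion differences there spanned −6.15 to 3.83 points for the DDIT3 event of 281 bases and −0.47 to 0.493 points for the ASNS exon. Without the limit on the fold, 9 of the 10 genes were called for Cisplatin in depleted cells, 2 for depletion in untreated cells and 7 for depletion under Cisplatin, where 60.2%, 27.4% and 42.9% of all genes were, and 34, 46, 14, 22 and 36 of the 63 pathway genes, where 55%, 60.2%, 4.25%, 27.4% and 42.9% of all genes were, for Cisplatin in control cells, Cisplatin in depleted cells, the interaction and depletion in untreated and in treated cells. The pathway count for depletion in untreated cells was 4 without replicate 2 of both control groups, where JDP2, SLC38A2 and CTH were added. Single libraries left out gave counts of 5 to 6, 5, 3 to 4, 1 and 4 for the 10 genes and 6 to 8, 10 to 12, 3 to 5, 1 to 3 and 5 to 9 for the pathway. Called splicing events were 0 to 2 in these fits and 3 with levels at least 10 points apart. With the replicate block the counts were 6, 5, 3, 1 and 4 for the 10 genes and 8, 12, 4, 1 and 6 for the pathway, and the replicate block changed no call of the 10 genes. The splicing tables carry no replicate numbers, so no block was possible there. With 2 to 17 intronic reads of CHAC1 and 0 to 4 of NUPR1 in untreated and depleted libraries, small changes of their ratio were not detectable at this depth. The causes of these differences between settings were not tested.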
